A study of Homo sapiens with 4 samples.

Results

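The genes described here are 9 components of MHC class I antigen presentation, taken from the 35606 genes of the count table by their symbols: HLA-B, HLA-C, HLA-E, B2M, NLRC5, TAP1, TAP2, PSMB8 and PSMB9. Each symbol matched 1 row, and all 9 had enough counts to be tested. They were compared between K562 cells labelled as expressing the fusion JAZF1-SUZ12 (2 libraries) and K562 cells labelled mock (2 libraries), to ask whether class I genes, a pathway known to be silenced by Polycomb repressive complex 2 (PRC2) in this line, differ in cells with the fusion. K562, an established line from a chronic myelogenous leukaemia, is human and erythroid in character, and every library was made from poly(A)-selected RNA. How the fusion was introduced, what the mock cells received, whether the lines are clones, and whether the libraries came from separate cultures are not given in the sources used here, so the p-values measure only the spread between these libraries.

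Class I molecules display peptides from inside the cell to CD8 T cells. Proteins are cut by the proteasome, whose inducible subunits PSMB8 and PSMB9 replace constitutive ones, and the peptides are carried into the endoplasmic reticulum by the transporter made of TAP1 and TAP2. There they are loaded onto a heavy chain (HLA-B, HLA-C or the less variable HLA-E) that is paired with the light chain B2M. NLRC5 is a transactivator of class I heavy chains and B2M, and acts through a promoter module bound by the RFX, CREB/ATF and NF-Y factors. K562 cells are known for low surface class I, which makes them a standard target of natural killer cells.

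The promoters of HLA-B, HLA-C and B2M are shown because, among the member promoters examined, these held every motif searched for. The RefSeq promoter table (GRCh38.p14) held 7 of the 9 genes, without HLA-E and NLRC5. Each sequence below runs from base -250 to base -39 relative to the RefSeq start, 5′ to 3′ on the gene's strand, at chr6:31357218-31357429 (HLA-B, minus strand), chr6:31272131-31272342 (HLA-C, minus strand) and chr15:44711267-44711478 (B2M, plus strand). Capitals mark matches, on either strand, to AANNGAAA (the core bound by interferon regulatory factors), TGACG (the core of the CREB/ATF site) and CCAAT (the NF-Y site).
HLA-B: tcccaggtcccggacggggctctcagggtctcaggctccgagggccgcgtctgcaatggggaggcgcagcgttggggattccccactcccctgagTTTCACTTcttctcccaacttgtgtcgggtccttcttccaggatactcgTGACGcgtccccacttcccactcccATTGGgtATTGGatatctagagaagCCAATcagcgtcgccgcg
HLA-C: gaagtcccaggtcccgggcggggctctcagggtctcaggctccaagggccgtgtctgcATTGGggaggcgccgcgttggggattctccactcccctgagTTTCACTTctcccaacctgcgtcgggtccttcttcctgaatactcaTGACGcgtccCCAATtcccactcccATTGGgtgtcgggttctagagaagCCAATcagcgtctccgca
B2M: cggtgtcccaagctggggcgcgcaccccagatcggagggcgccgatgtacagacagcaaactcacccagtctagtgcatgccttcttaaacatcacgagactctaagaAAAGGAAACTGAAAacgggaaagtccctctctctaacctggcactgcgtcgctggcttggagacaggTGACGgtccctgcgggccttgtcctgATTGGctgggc

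All 3 windows held each of the 3 motifs, in the order interferon core, CREB/ATF core and CCAAT box when only the CCAAT match nearest the start is counted. In B2M 2 matches to the interferon core overlap. Among 27305 promoter windows of the same 212 bases, 18.2% held the interferon core, 18.0% the CREB/ATF core, 30.0% a CCAAT box and 0.861% all 3. The HLA-B and HLA-C windows were identical at 191 of 208 aligned bases, or 91.8%. The other 4 member windows each lacked at least 1 motif. TAP1 held the interferon core and a CCAAT box, TAP2 the interferon core, PSMB8 the CREB/ATF core, and PSMB9 the CREB/ATF core and a CCAAT box. The motifs were chosen with the windows in view, and a match of letters is a description of the reference sequence and not a measured binding site.

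Depth was 17260936 and 24423028 estimated counts with the fusion and 20444636 and 21296732 in mock, and levels are given as CPM, counts scaled to each library's total. A mean is followed by its SD over the 2 libraries of the group, and log2 fold changes take mock as the reference. In bulk RNA, fewer cells expressing a gene and less RNA per cell cannot be told apart. JAZF1 and SUZ12, the fusion partners, rose as the labels imply, with log2 fold changes of 5.05 and 1.01 (edgeR quasi-likelihood test, adjusted p = 1.07e-10 and 1.15e-09). In the authors' deposited table they stood at 6.82 and 1.26, so that table and the counts give different fold changes, here and for members below, for a reason not given in the sources used here. The source label gives uterus, whereas the 8 erythroid markers examined were all counted and summed to between 6908 and 7142 CPM in mock and between 8143 and 8228 CPM in JAZF1-SUZ12 libraries. The 12 lymphoid and myeloid markers, whose cells carry much class I, summed to between 49.5 and 57.1 CPM in mock and between 44.9 and 47.2 CPM in JAZF1-SUZ12 libraries, and CD8A, MS4A1, CD14 and FLT3 had at most 3 counts in every library. The 8 stromal markers summed to between 10.05 and 10.9 CPM in mock and between 27.0 and 28.2 CPM in JAZF1-SUZ12 libraries, with COL3A1 and LUM at no more than 3 counts in every library and COL1A1 as the main part. The part of these markers in the class I values was not tested.

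NLRC5 was called higher and HLA-E called lower in JAZF1-SUZ12 libraries, and the other 7 members were not called. These 2 of 9 members passed an adjusted p of 0.05 (edgeR quasi-likelihood test, Benjamini-Hochberg adjustment over 14750 genes), against 24.7% of all genes tested, so the share called was close to the background. By direction, the background was 13.3% called higher and 11.4% called lower. The median log2 fold change of the members was 0.16, and that of all genes tested was 0.0032. Values of the groups did not overlap for 4 members, against 61.0% of all genes tested; 3 of them were higher with the fusion and 1 lower, where 33.8% and 27.2% of all genes were. With DESeq2 on the same counts none of the 9 was called, and 3 had an unadjusted p under 0.05, against 5 with edgeR. The authors' deposited table also called none of them, with 2 at an unadjusted p under 0.05.

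**Figure D1:**
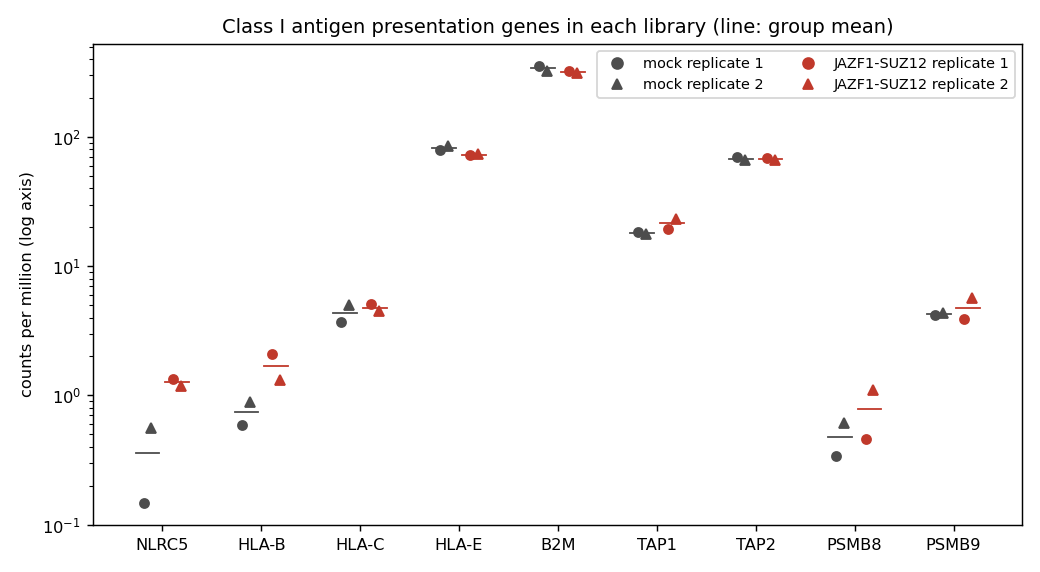
Levels in CPM (log axis) of the 9 class I presentation genes in each of the 4 libraries. Grey marks mock and red marks JAZF1-SUZ12, circles are replicate 1 and triangles replicate 2, and each line is a group mean. NLRC5 and HLA-B show the widest gap between groups and lie near 1 CPM, while B2M lies at 315 CPM or more in every library.

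NLRC5 (ENSG00000140853; GRCh38 chromosome 16, 56989485 to 57083531, plus strand), the transactivator, was the member with the largest fold change. The fusion libraries held 23 and 29 counts, the mock libraries 3 and 12, or 1.33 and 1.19 CPM against 0.147 and 0.563 CPM. Both JAZF1-SUZ12 libraries lay above both mock libraries, and the mock libraries differed widely from each other. It rose from 0.355 ± 0.295 to 1.26 ± 0.103 CPM. This was a log2 fold change of 1.77 (SE 0.60, 95% interval 0.51 to 3.03, edgeR adjusted p = 0.0394). Among tested genes with a mean under 50 counts, where NLRC5 lies, 15.6% were called higher.

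The NLRC5 call did not hold under each change of setting. DESeq2 gave an adjusted p of 0.118, and the authors' deposited table gave a log2 fold change of 1.05 with an adjusted p of 0.707. The call was lost without mock replicate 1 (log2 fold change 1.13, edgeR adjusted p = 0.212), without JAZF1-SUZ12 replicate 1 (adjusted p = 0.108) and without JAZF1-SUZ12 replicate 2 (adjusted p = 0.0965). Without mock replicate 2 the remaining mock library had only 3 counts, against 52 in the JAZF1-SUZ12 libraries together. The ratio per count sequenced was then 8.50, with a 95% exact interval from 2.75 to 42.6 that covers counting error only. Of the 31-base words in its reference transcripts, 99.7% occur in no other gene, so few of its reads could be divided among genes.

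HLA-B (ENSG00000234745; chromosome 6, 31269491 to 31357188, minus strand) is a classical heavy chain and was scarce in these cells. Fusion libraries held 36 and 32 counts and mock libraries 12 and 19, or 2.09 and 1.31 CPM against 0.587 and 0.892 CPM. The groups did not overlap, yet the difference was not called. edgeR estimated a log2 fold change of 1.15 (SE 0.47, 95% interval 0.16 to 2.15, adjusted p = 0.0871). The authors' deposited table gave a log2 fold change of 0.58 with an adjusted p of 0.813.

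HLA-C (ENSG00000204525; chromosome 6, 31268749 to 31272130, minus strand), the other classical heavy chain among the members, overlapped between groups. It was at 5.10 and 4.46 CPM in the JAZF1-SUZ12 libraries and at 3.67 and 4.98 CPM in the mock libraries. The log2 fold change of 0.12 was not called, and its 95% interval ran from -0.37 to 0.60 (edgeR, adjusted p = 0.758). Within a library, the ratio of HLA-C to HLA-B level per kilobase was 2.43 and 3.39 with the fusion and 6.22 and 5.55 in mock, so it was lower in both JAZF1-SUZ12 libraries. The difference between those ratios was not tested.

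Heavy chains resemble one another in sequence, so the counting could divide reads among them. Words of 31 bases found in no other gene made up 74.5% of those of HLA-B, 83.0% of HLA-C and 88.2% of HLA-E, and 10.4% of the HLA-C words also occur in HLA-B. The largest overlap of HLA-B was with AL671883.2, at 16.1% of its words. That gene had 0 and 0 counts with the fusion and 5 and 0 in mock. In GENCODE release 29 the HLA-B gene includes a long transcript that reaches across HLA-C.

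HLA-E (ENSG00000204592; chromosome 6, 30489467 to 30494205, plus strand), which presents leader peptides of other heavy chains to natural killer cells, was the most abundant heavy chain among the members. It was at 72.1 and 73.2 CPM in the JAZF1-SUZ12 libraries and at 78.9 and 84.4 CPM in the mock libraries. The groups did not overlap, with both fusion libraries lower. HLA-E fell from 81.6 ± 3.88 to 72.6 ± 0.736 CPM. On the log2 scale the difference was -0.19 (SE 0.06, 95% interval -0.32 to -0.064, edgeR adjusted p = 0.0282).

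Of the tested genes with a mean of at least 1000 counts, among which HLA-E lies, 24.7% were called lower. The HLA-E call was lost with DESeq2 (adjusted p = 0.0948), without mock replicate 2 (log2 fold change -0.13, edgeR adjusted p = 0.232) and without JAZF1-SUZ12 replicate 2 (adjusted p = 0.0787). In the authors' deposited table HLA-E had a log2 fold change of -0.23 and an adjusted p of 0.204.

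B2M (ENSG00000166710; chromosome 15, 44711487 to 44718877, plus strand), the light chain shared by all class I molecules, was the most abundant member. It was at 323 and 315 CPM in the JAZF1-SUZ12 libraries and at 355 and 322 CPM in the mock libraries. The groups overlapped narrowly, since JAZF1-SUZ12 replicate 1 lay just above mock replicate 2. Its log2 fold change of -0.11 was not called (95% interval -0.21 to -0.0011; edgeR, adjusted p = 0.135). Leaving out mock replicate 2 or JAZF1-SUZ12 replicate 1 brought the adjusted p to 0.0442 and 0.0338, and leaving out mock replicate 1 reduced the log2 fold change to -0.034.

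**Figure D2:**
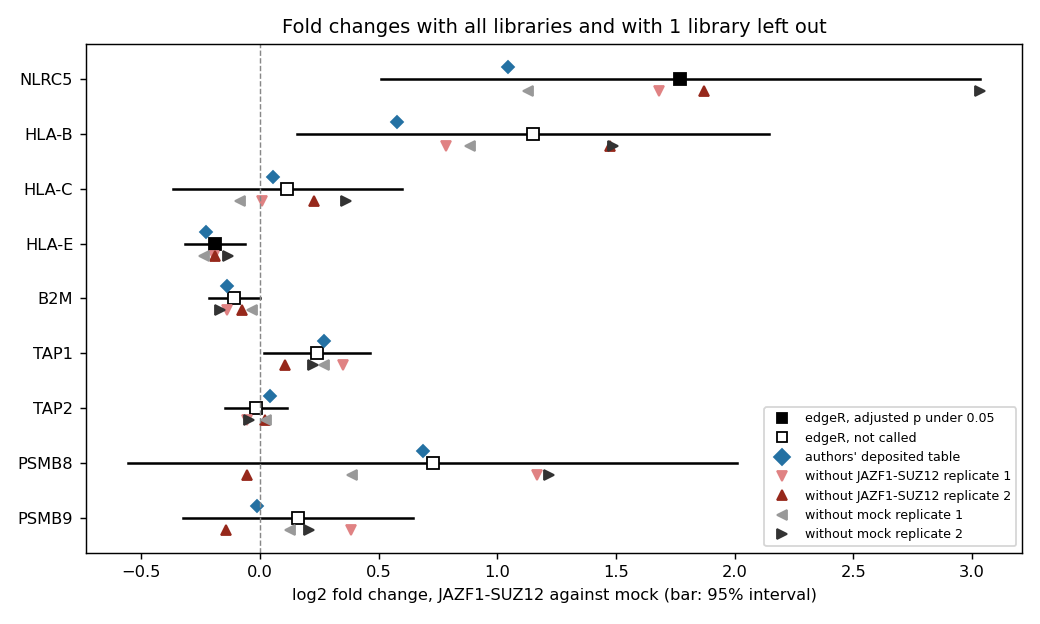
Each member's log2 fold change with the fusion, relative to mock. Squares with bars are the edgeR estimates and their 95% intervals (filled where called), blue diamonds are the values in the authors' deposited table, and triangles are the fits that each left out 1 library. NLRC5 ranges from 1.13 to 3.03 over the fits without 1 library, and PSMB8 from -0.052 to 1.22.

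The peptide transporter showed no called difference. TAP1 (ENSG00000168394; chromosome 6, 32845209 to 32853978, minus strand) was at 19.4 and 23.4 CPM in the JAZF1-SUZ12 libraries and at 18.2 and 17.6 CPM in the mock libraries. Replicate 2 of the fusion group stood highest, and the groups did not overlap. edgeR estimated a log2 fold change of 0.24 (SE 0.11, 95% interval 0.017 to 0.47, adjusted p = 0.112). Without JAZF1-SUZ12 replicate 1 it was 0.35 (adjusted p = 0.0248), and without JAZF1-SUZ12 replicate 2 it was 0.11 (adjusted p = 0.669), so the value depended on the fusion library used.

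TAP2 (ENSG00000204267; chromosome 6, 32821833 to 32838780, minus strand), its partner, was at 69.3 and 66.9 CPM with the fusion and at 69.6 and 66.0 CPM in mock. The groups overlapped fully. The log2 fold change of -0.017 had a 95% interval from -0.15 to 0.11 (edgeR, adjusted p = 0.876), or between 0.904-fold and 1.08-fold of mock. Of its 31-base words, 31.7% also occur in AL669918.1, an overlapping gene on the same strand, which had 93 and 172 counts with the fusion and 129 and 166 in mock (edgeR, adjusted p = 0.503).

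The inducible proteasome subunits were scarce beside their constitutive counterparts. PSMB8 (ENSG00000204264; chromosome 6, 32840717 to 32844703, minus strand), which takes the place of PSMB5, had 8 and 27 counts with the fusion and 7 and 13 in mock. These are 0.463 and 1.11 CPM against 0.342 and 0.610 CPM, and the groups overlapped. For PSMB8 the estimate of 0.73 was not called, with a 95% interval from -0.55 to 2.01 (edgeR, adjusted p = 0.422). That interval, from 0.681-fold to 4.03-fold of mock, includes no change. Leaving out JAZF1-SUZ12 replicate 2 moved the estimate to -0.052.

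PSMB9 (ENSG00000240065; chromosome 6, 32844136 to 32859585, plus strand), which takes the place of PSMB6, was at 3.88 and 5.69 CPM with the fusion and at 4.16 and 4.37 CPM in mock. The fusion libraries lay on either side of the mock libraries. The estimate was 0.16 on the log2 scale (95% interval -0.32 to 0.64; edgeR, adjusted p = 0.663), and without JAZF1-SUZ12 replicate 2 it was -0.14. That library was the highest of the 4 for TAP1, PSMB8 and PSMB9, and it was also the deepest and had the most genes with at least 10 counts, 15328 against between 14121 and 14382 in the others. TAP1, PSMB8 and PSMB9 lie in 1 cluster and overlap each other or PSMB8-AS1 on opposite strands. For TAP2, 1.94 kb from PSMB8, that library was not the highest (66.9 CPM, against 69.3 CPM in JAZF1-SUZ12 replicate 1). Nothing in the sources states that strand was used in counting, and 19.1% of the PSMB8 words and 8.89% of the TAP1 words also occur in PSMB8-AS1. PSMB8-AS1 is not among the genes of the count table.

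Levels of different genes were compared per kilobase of the longest coding transcript in GENCODE. In the mock libraries B2M was highest at 199 ± 13.6 CPM per kilobase, followed by HLA-E at 31.4 ± 1.49, TAP2 at 11.9 ± 0.440, TAP1 at 6.06 ± 0.152, PSMB9 at 5.38 ± 0.187 and HLA-C at 2.78 ± 0.596. HLA-B at 0.478 ± 0.140, PSMB8 at 0.353 ± 0.140 and NLRC5 at 0.0521 ± 0.0432 CPM per kilobase were the lowest. HLA-B and PSMB8 overlapped in mock, whereas each other neighbouring pair in this order was separate. With the fusion the order was the same, but TAP1 overlapped with PSMB9 and PSMB8 with HLA-B no longer did.

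The gap between constitutive and inducible proteasome subunits was wide in every library. PSMB5 was between 118 and 407 times as high as PSMB8 per kilobase, PSMB6 between 10.6 and 16.3 times as high as PSMB9, and PSMB7 between 11.02 and 13.8 times as high as PSMB10. The constitutive subunits themselves were not called, with log2 fold changes of -0.13 for PSMB5, -0.089 for PSMB6 and -0.033 for PSMB7 (edgeR, adjusted p = 0.0830, 0.308 and 0.678). For PSMB10, the remaining inducible catalytic subunit, it was -0.24 (adjusted p = 0.0841).

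**Figure D3:**
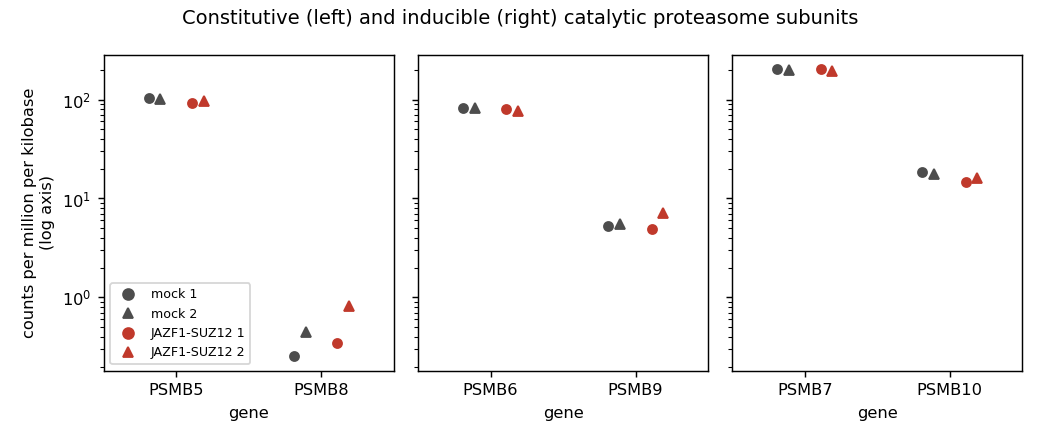
Level per kilobase (CPM per kilobase of the longest coding transcript, log axis) of each constitutive catalytic subunit beside the inducible subunit that replaces it. Grey marks mock and red marks JAZF1-SUZ12, with circles for replicate 1 and triangles for replicate 2. In each panel both groups of the constitutive gene lie at least 10.6 times above the inducible gene of the same library.

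Other genes of the pathway were examined as lists, each set beside the background of 24.7% called and a median log2 fold change of 0.0032. Of 10 genes for peptide loading, trimming and folding, 9 were tested, 2 were called lower and none higher, with a median log2 fold change of -0.096. The chaperone CALR fell from 644 ± 3.55 to 557 ± 12.9 CPM, by 0.23 on the log2 scale (edgeR, adjusted p = 0.000921). The trimming aminopeptidase LNPEP fell by 0.18 on the log2 scale (edgeR, adjusted p = 0.0474), a call that DESeq2 did not make (adjusted p = 0.201) and that was lost without any 1 library. TAPBP, which bridges the transporter and the heavy chain, was at 105 ± 1.73 CPM with the fusion and 105 ± 3.82 CPM in mock. The authors' deposited table called CALR lower (adjusted p = 0.000258) but did not call LNPEP (adjusted p = 0.882). It also called ERAP2 higher (log2 fold change 1.38, adjusted p = 0.0430), where edgeR gave 0.65 (adjusted p = 0.0891).

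Among 8 proteasome partners, 1 was called higher and 1 lower, with a median of -0.085. PSME1, a subunit of the interferon-inducible activator PA28, rose from 49.5 ± 1.16 to 62.4 ± 1.84 CPM (log2 fold change 0.31, edgeR adjusted p = 0.00169). Its partner PSME2 had a log2 fold change of -0.079 (adjusted p = 0.410). PSME3, the subunit of the nuclear form of that activator, fell by 0.32 on the log2 scale (adjusted p = 0.00026). The authors' deposited table called PSME3 lower (adjusted p = 0.0315) but did not call PSME1 (log2 fold change 0.29, adjusted p = 0.116).

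Of 16 transcription regulators of class I genes, 3 were called lower and 1 higher, with a median of -0.12. RFXANK, a subunit of the RFX complex, fell from 73.8 ± 4.07 to 58.9 ± 0.897 CPM (log2 fold change -0.35, edgeR adjusted p = 0.000713). ATF1 fell by 0.32 and NFYA by 0.24 on the log2 scale (adjusted p = 0.00386 and 0.0278). IRF1, an interferon regulatory factor, was the regulator called higher, at 16.1 ± 0.109 CPM with the fusion against 11.4 ± 2.26 CPM in mock (log2 fold change 0.47, adjusted p = 0.0186). Neither NFYA nor IRF1 was called by DESeq2 (adjusted p = 0.0950 and 0.0732). The authors' deposited table called RFXANK and RFX5 lower (log2 fold changes -0.51 and -0.55, adjusted p = 0.000366 and 0.0167). For RFX5 edgeR gave -0.17 (adjusted p = 0.145). That deposited table did not call ATF1, NFYA or IRF1 (adjusted p = 0.430, 0.164 and 0.809). IRF1 was not called without mock replicate 2 either (log2 fold change 0.29, edgeR adjusted p = 0.191). NFYA was lost without JAZF1-SUZ12 replicate 2 (log2 fold change -0.11), without mock replicate 1 and without mock replicate 2 (edgeR adjusted p = 0.404, 0.0851 and 0.0678).

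None of 12 interferon receptors and signalling genes was called by edgeR, DESeq2 or limma-voom, with 1, 0 and 1 of them at an unadjusted p under 0.05. Their log2 fold changes lay between -0.16 and 0.18, with a median of -0.040.

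The other class I and class I-like heavy chains had 5 of 7 genes tested and 2 called, both higher. These 2, CD1D and FCGRT, were not called in the authors' deposited table (adjusted p = 0.222 and 0.379). CD1D, which presents lipids to natural killer T cells, had 21 and 19 counts with the fusion and 1 and 5 in mock (log2 fold change 2.70, edgeR adjusted p = 0.0134). CD1D stood at 2.02 when mock replicate 1 was left out and at 2.36 without JAZF1-SUZ12 replicate 1, and the call was lost in both cases (adjusted p = 0.0775 and 0.0874). Without mock replicate 2 the mock group held 1 count against 40, a ratio per count sequenced of 19.6 with a 95% exact interval from 3.32 to 794 for counting error only. FCGRT, the neonatal Fc receptor, rose from 1.34 ± 0.368 to 2.71 ± 0.224 CPM (log2 fold change 0.99, edgeR adjusted p = 0.0439). It was not called by DESeq2 (adjusted p = 0.148) or without mock replicate 1 (edgeR adjusted p = 0.220) or either JAZF1-SUZ12 library (adjusted p = 0.0749 and 0.206).

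In PRC2 itself, 11 of 12 subunits were tested, with 3 called higher, SUZ12 among them, and 2 lower. The gene-level SUZ12 count holds reads of the fusion and of the endogenous gene together. The catalytic subunit EZH2 fell by 0.17 and EED by 0.40 on the log2 scale (edgeR, adjusted p = 0.0134 and 0.000544), and EZH1 and PHF19 rose by 0.28 and 0.14 (adjusted p = 0.0159 and 0.0205). The authors' deposited table called EED (adjusted p = 0.00485) but not EZH2, EZH1 or PHF19 (adjusted p = 0.185, 0.810 and 0.900). The EZH2 call was lost without mock replicate 1 (adjusted p = 0.107), that of EZH1 with DESeq2 (adjusted p = 0.104), without mock replicate 1 (edgeR adjusted p = 0.0652) and without JAZF1-SUZ12 replicate 2 (adjusted p = 0.201). PHF19 was lost without mock replicate 1 and without mock replicate 2 (adjusted p = 0.106 and 0.0509).

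**Figure D4:**
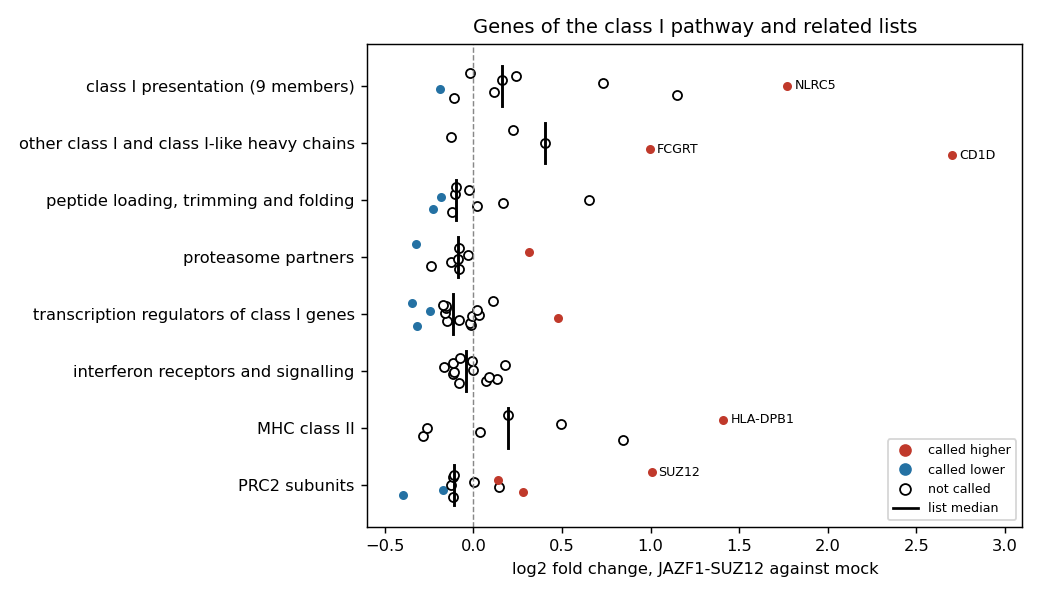
Tested genes of each list by their log2 fold change with the fusion, relative to mock. Red marks genes called higher, blue genes called lower, open circles genes not called, and black lines list medians. Most points lie within 0.5 of 0, and the called genes beyond 0.9 are named: NLRC5, FCGRT, CD1D, HLA-DPB1 and SUZ12.

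Among all tested genes with a symbol and a mean of at least 50 counts, 3 had the profile nearest to that of HLA-E, the member with the smallest p, by Euclidean distance of centred log2 CPM over the 4 libraries. They were RPE at a distance of 0.0107, POLR2F at 0.0146 and KRTCAP2 at 0.0176, chosen from 11624 genes. Their log2 fold changes were -0.18, -0.19 and -0.18. Values near that of HLA-E follow from how these genes were chosen, over the same 4 libraries. Of these, POLR2F and KRTCAP2 were called lower (edgeR, adjusted p = 0.0381 and 0.0490) and RPE was not called (adjusted p = 0.0580). DESeq2 called neither POLR2F nor KRTCAP2 (adjusted p = 0.165 and 0.186). POLR2F also lost its call without any 1 library, and KRTCAP2 without either JAZF1-SUZ12 library or mock replicate 2.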

How the data were processed

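RNA-seq of 4 K562 libraries was analysed from the gene table of estimated counts that the authors deposited, not normalized. Per the submitters' processing notes, hg38, fastp 0.20.1, FastQC 0.11.7, MultiQC 1.5, kallisto 0.46.2 and DESeq2 1.30.1 were named, with no role or order; the annotation is not given in the sources used here. A second deposited table holds their own comparison: a mean normalized signal, a log2 fold change with its standard error, a score (the test statistic), and p-values, per the file headers.

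Because the values were estimated counts, they were rounded and tested with edgeR 4.0.16 in R 4.3.3 (filterByExpr, TMM, quasi-likelihood F test, group as the only term, all 4 libraries, Benjamini-Hochberg over 14750 genes, threshold 0.05). DESeq2 1.42.0 and limma 3.58.1 (voom) were alternatives, with other scalings, filters, the replicate number as a block and each library left out. CPM uses the library total; at most 3 counts is the floor. The edgeR, DESeq2 and voom fits were tested on simulated data. The simulation placed no changes in genes as scarce as HLA-C and PSMB9. NLRC5, HLA-B, PSMB8, CD1D, FCGRT and HLA-DPB1 are scarcer still, so it does not bear on the results for any of these genes. The block and the fits without 1 library were not simulated. Positions, lengths and 31-base words came from GENCODE release 29 (GRCh38) and promoters from RefSeq.

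The members and lists were chosen with earlier results of these data known. The genes named are the members, JAZF1 and SUZ12, up to 5 called genes per list, PSMB5, PSMB6 and PSMB7, and the 3 genes nearest in profile to the member with the smallest p. Other genes (PSMB10, PSME2, TAPBP, ERAP2, RFX5, overlapping and neighbouring genes, and the markers) were named after their values were seen, as were the motifs chosen.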

Additional observations from a re-analysis of the deposited data

How the results depend on the processing

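DESeq2 in place of edgeR reduced the genes called from 3643 to 2407, those called lower from 1688 to 1051, and the members called from 2 to 0 (0 higher, 0 lower), with NLRC5 at a log2 fold change of 1.79 and HLA-E at -0.19; the cause was not tested. A minimum mean of 50 counts left 1 member called and 0 called higher, since NLRC5 is then not tested. With that minimum and with total counts only, TAP2 stood at 0.0072 and 0.0053. The list medians then stood at -0.088 and -0.090 for PRC2, -0.073 and -0.075 for peptide loading, -0.061 and -0.063 for proteasome partners, and -0.094 and -0.095 for transcription regulators. The minimum also gave 0.59 for MHC class II, where 7 genes were tested in the main fit. Only HLA-DPB1 (1.44 with the minimum) and CIITA (-0.28 in the main fit) then remained in that list.

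In the fits that each left out 1 library, the lone sample is assumed to vary like the other group. Genes called ranged from 2455 to 3734, higher from 1502 to 1871 and lower from 953 to 1863 (953 without mock replicate 1, 1064 without mock replicate 2, 1072 without JAZF1-SUZ12 replicate 2). Members called ranged from 0 to 3, higher from 0 to 1 and lower from 0 to 2; each was 0 without JAZF1-SUZ12 replicate 2, and the count higher was also 0 without mock replicate 1. Log2 fold changes ranged from 1.13 to 3.03 for NLRC5, 0.78 to 1.49 for HLA-B, -0.083 to 0.36 for HLA-C, -0.23 to -0.13 for HLA-E, -0.17 to -0.034 for B2M, 0.11 to 0.35 for TAP1, -0.054 to 0.024 for TAP2, -0.052 to 1.22 for PSMB8, -0.14 to 0.38 for PSMB9 and -0.082 to 0.017 for PSMB7. HLA-C was negative without mock replicate 1, PSMB8, PSMB9 and PSMB7 changed sign without JAZF1-SUZ12 replicate 2, and TAP2 was positive without that library (0.024) or mock replicate 1 (0.024). The member median ranged from 0.024 to 0.35. List medians ranged from 0.21 to 0.75 for other heavy chains (0.41 with all libraries), -0.11 to -0.060 for peptide loading, -0.12 to -0.072 for proteasome partners, -0.14 to -0.087 for transcription regulators, -0.078 to 0.0090 for interferon genes, -0.18 to 0.57 for MHC class II (0.20 with all libraries, -0.18 without JAZF1-SUZ12 replicate 2) and -0.087 to -0.066 for PRC2 (-0.11 with all libraries).

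Of 251 alternative values for the 23 other genes (neighbours and genes named after their values were seen were not run), 211 kept their call, 38 lost it, 1 gained it and 1 (PSMB7) changed sign. A replicate block gave 4061 genes called, 2 of them members; among the members and the 23 other genes run under the alternatives, only RPE changed its call (edgeR adjusted p = 0.0342). Deviations of same-numbered libraries correlated at 0.035 over 11826 genes. With 1 difference between replicates per group, this value cannot show whether same-numbered libraries shared a culture or batch. Depth limits NLRC5, HLA-B and PSMB8 most, with at most 36 counts in a library.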

Other observations

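MHC class II genes, which present peptides from outside the cell, were also scarce. Of 12 listed, 7 were tested and 1 was called. HLA-DPB1, a class II beta chain, had 69 and 105 counts with the fusion and 34 and 30 in mock. Its level, 1.54 ± 0.180 CPM in mock, rose to 4.15 ± 0.213 CPM, by 1.41 on the log2 scale (edgeR, adjusted p = 0.00176), and DESeq2 also called it (adjusted p = 0.00455). The log2 fold change of HLA-DPB1 lay between 1.304 and 1.54 in the fits without 1 library, each of which called it. The authors' deposited table gave 1.21 with an adjusted p of 0.152. Its partner chain HLA-DPA1 stood at 0.50 (edgeR, adjusted p = 0.440), and CIITA, the class II transactivator and a relative of NLRC5, stood at -0.28 (adjusted p = 0.395). HLA-DQB1 and HLA-DMB had 0 counts in every library, and HLA-DRA and HLA-DRB1 at most 1.

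Tested genes near the members on the chromosome were read from the same fit, and their gaps to a member reached 598 kb. Taking the 3 nearest tested genes on either side gave 30 distinct neighbours that are not members, of which 4 were called higher and 4 lower (edgeR), a share near the 24.7% called among all genes. Their median log2 fold change was 0.016. MICA, a stress ligand for the receptor NKG2D, lies 42.6 kb from HLA-B and rose by 0.47 on the log2 scale (edgeR, adjusted p = 0.00054). MICB, 138 kb from HLA-B, stood at 0.14 (adjusted p = 0.198). CPNE2, 9.01 kb from NLRC5, rose by 0.50 (adjusted p = 0.0011), and NUP93, 139 kb away, fell by 0.26 (adjusted p = 0.002). GNL1 and ABCF1, 47.2 and 77.2 kb from HLA-E, fell by 0.22 and 0.31 on the log2 scale (adjusted p = 0.00602 and 0.000139). SORD2P and SORD, 107 and 304 kb from B2M, rose by 0.45 and 0.27 (adjusted p = 0.0384 and 0.00123). EIF3J, 148.5 kb from B2M, fell by 0.15 (adjusted p = 0.0338). PATL2 and TRIM69, the tested genes closest to B2M at 0.171 and 10.1 kb, were not called (edgeR, adjusted p = 0.464 and 0.0674).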
